A study of Mus musculus with 12 samples.

Results

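The proteasome subunits and their assembly factors were taken as the rows of both count tables whose symbol begins with Psma, Psmb, Psmc, Psmd, Psme, Psmf or Psmg followed by a digit. The rule found 49 of the 23420 gene rows: 19 of the core particle (Psma and Psmb), 21 of the regulatory particle (Psmc and Psmd), 4 activators (Psme), 1 inhibitor (Psmf1) and 4 assembly factors (Psmg). The regulatory count includes Psmc3ip, a meiotic recombination factor that matches by name alone, and the medians of that class leave it out. The cells were R1 mouse embryonic stem cells kept on gelatin with LIF, a cytokine that sustains the undifferentiated state, and harvested 48 h after transfection. They had received either 1 of 3 siRNAs against Krr1 (siKrr1, libraries A, C and D), a ribosome assembly factor, or 1 of 3 controls (siGFP, siNC and Lipo, whose name states no siRNA). Each lysate gave an RNA-seq library and a ribosome footprint library, 12 libraries in all, with 3 per condition and assay. The labels do not say that the lysates of a condition came from separate cultures, so the p-values cover no more than the spread among these lysates, which may be technical. Lysates of a condition also differed in the siRNA or control they received, so that spread takes in differences between reagents.

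The proteasome is the protease that degrades proteins tagged with ubiquitin. Its core particle is a barrel of outer alpha rings, which gate the entrance, and inner beta rings, which carry the cutting sites. The regulatory particle caps the barrel: the lid removes ubiquitin, and the ATPases of the base unfold the substrate and feed it in. Dedicated chaperones build both particles. In mammalian cells the transcription factor NRF1 (Nfe2l1) raises most subunit genes together when proteasome activity falls, through antioxidant response elements in their promoters.

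Krr1 checked the labels. Its RNA stood at 33.7, 58.0 and 64.6 CPM (read counts scaled to library size) in siKrr1 A, C and D, against 155, 151 and 160 CPM in siGFP, siNC and Lipo. Its footprints stood at 31.1, 61.6 and 51.7 CPM in the siKrr1 libraries, against 165, 158 and 171 CPM in the controls. Every library matched its label. Reads on genes numbered 31318772 to 39670139 per RNA library and 21615934 to 28911254 per footprint library. The summed level of 9 stem cell markers was 6549 to 7845 CPM in siKrr1 RNA and 8209 to 8304 CPM in control RNA. In each assay 3 of the 9 fell (edgeR adjusted p under 0.05), beside 2.11% of all genes tested in RNA and 2.68% in footprints. The part of these falls in the proteasome values was not tested. Of 8 fibroblast markers, Col3a1, Postn and Lum were at 0 in RNA, and the list summed to 12.4 to 18.1 CPM in siKrr1 and 15.1 to 18.4 CPM in controls. The leukocyte markers, 6 genes, summed to 4.79 to 5.71 CPM in siKrr1 RNA and 4.15 to 5.17 CPM in control RNA.

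Few proteasome genes were called as changed after Krr1 knockdown, and few genes of any kind were. Of the 47 that had enough reads to be tested, none was called in RNA (adjusted p under 0.05 by the quasi-likelihood test of edgeR), where 4.8% of all 14038 genes tested were called (2.69% higher and 2.11% lower). In footprints 2 of the 47 were called, Psmf1 as higher and Psmd5 as lower, where 6.07% of 13287 genes were called (3.39% higher and 2.68% lower). No change of translational efficiency, the footprint change beyond the RNA change, was called for a proteasome gene or for any other of the 14236 genes tested (0%). That fit treated the RNA and footprint libraries of a lysate as independent. With the lysate as a block, 5 genes were called higher and 1 lower, none of them a proteasome gene. In the fits without a block, the counts at an unadjusted p under 0.05 were 2 of 47 in RNA (20.9% of all genes), 8 of 47 in footprints (22.5%) and 1 of 47 in translational efficiency (2.37%). With DESeq2 in place of edgeR, 2 of the 47 were called in RNA, Psma8 and Psmf1, both higher, beside 9.09% of the 13221 genes that DESeq2 gave an adjusted p (5.04% higher).

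A missed threshold does not show that levels were equal, so the 95% intervals of the fold changes were read against a limit of 1.25-fold in either direction, a limit chosen after the values were seen. In RNA the whole interval lay inside the limit for 38 of 47 proteasome genes (80.9%) and for 32.1% of all genes tested. In footprints it did so for 41 of 47 (87.2%), against 36.6% of all genes tested, and in translational efficiency for 30 of 47 (63.8%), against 22.9%. Proteasome genes are abundant, which narrows their intervals: their median was 8484 reads per RNA library, against 767.1 over all genes tested. Among genes with a mean of at least 1000 reads, the interval lay inside the limit for 37 of 43 proteasome genes (86%) and 60.7% of all 6310 genes in RNA. In footprints the counts above the same floor were 35 of 38 (92.1%), against 72.4% of 4582 genes. The floor does not match depth, since the proteasome medians of 8484 RNA and 6890 footprint reads lay far above it. Genes of equal depth were not compared.

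For the subunits that make up the constitutive proteasome (alpha and beta rings, base and lid), the interval lay inside 1.25-fold in 28 of 31 in RNA, the exceptions being Psmb5, Psmd3 and Psmd7, and in 31 of 31 in footprints. The median log2 fold change over all 47 was -0.02 in RNA and -0.04 in footprints, against -0.00 and 0.01 over all genes tested. The median absolute log2 fold change was 0.0491 in RNA and 0.0781 in footprints, against 0.144 and 0.138. The gap was smaller among genes with a mean of at least 1000 reads, a floor that does not match depth. There the median was 0.0463 for proteasome genes and 0.0977 for all genes in RNA. In footprints above that floor the values were close, 0.0815 for proteasome genes and 0.09075 for all genes. Together the 49 rows took 1.19% to 1.26% of gene reads in siKrr1 RNA and 1.18% to 1.24% in control RNA. In footprints they took 1.19% to 1.22% in siKrr1 and 1.21% to 1.22% in controls. All of these are levels relative to the rest of a library, and in bulk samples fewer cells of a type and less RNA per cell cannot be told apart.

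**Figure D1:**
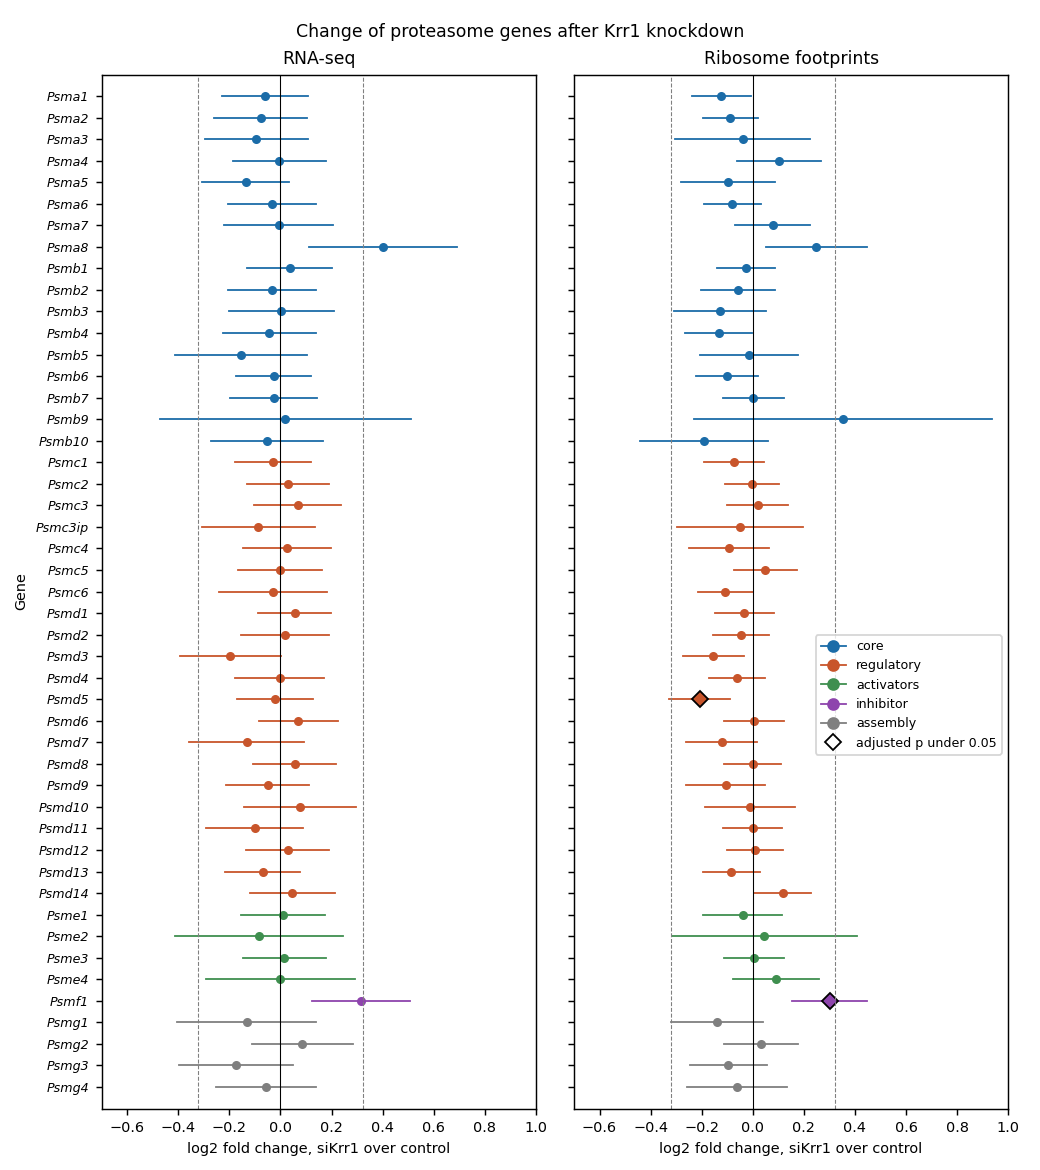
Log2 fold change (siKrr1 over control, 3 libraries each) of the 47 tested proteasome genes in RNA-seq and ribosome footprints, with 95% intervals from edgeR. Dashed lines mark 1.25-fold; diamonds mark Psmf1 and Psmd5 in footprints, the genes with an adjusted p under 0.05, while nearly all subunits sit near 0.

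Because subunit genes are known to be controlled through shared promoter elements, the RefSeq promoter table (GRCm38.p6, 250 bases before to 50 after a start) was searched on both strands for the core of the antioxidant response element, TGACNNNGC, and for the CCAAT box. The table matched 41 of the 49 genes, with 44 promoters. TGACNNNGC was in 6 of the 44 (13.6%), those of Psmb5, Psmb6, Psmc6, Psmd9, Psmd12 and Psme4, and in 12.4% of all 32851 promoters. CCAAT was in 15 of 44 (34.1%), and in 37.4% of all promoters. The motifs were counted separately, so a stretch could count for both, and a match is only a match of letters. Shown are the 250 bases before the start of both genes called in footprints, Psmf1 (chr2:151741311-151741560, minus strand) and Psmd5 (chr2:34870963-34871212, minus strand), and of a catalytic subunit gene that was not called, Psmb5 (chr14:54617996-54618245, minus strand). Capitals mark TGACNNNGC.

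Psmf1: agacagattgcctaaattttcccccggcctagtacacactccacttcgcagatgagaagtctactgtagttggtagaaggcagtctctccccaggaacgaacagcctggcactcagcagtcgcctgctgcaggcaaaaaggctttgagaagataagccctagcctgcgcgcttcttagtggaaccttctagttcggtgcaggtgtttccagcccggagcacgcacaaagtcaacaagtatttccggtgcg
Psmd5: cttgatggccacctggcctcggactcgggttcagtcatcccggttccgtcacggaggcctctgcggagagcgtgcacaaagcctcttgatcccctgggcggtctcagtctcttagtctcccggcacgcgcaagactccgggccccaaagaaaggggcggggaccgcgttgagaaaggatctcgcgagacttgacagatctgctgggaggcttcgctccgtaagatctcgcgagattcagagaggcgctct
Psmb5: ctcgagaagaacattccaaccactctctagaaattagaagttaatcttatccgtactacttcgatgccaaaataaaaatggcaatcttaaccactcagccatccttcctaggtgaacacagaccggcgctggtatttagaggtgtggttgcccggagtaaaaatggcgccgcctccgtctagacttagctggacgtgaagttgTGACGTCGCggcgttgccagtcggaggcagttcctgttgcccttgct

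Neither the Psmf1 nor the Psmd5 window holds either motif, and the Psmb5 window holds 1 TGACNNNGC. The RefSeq start of Psmf1 used here lies inside the span of the gene on chromosome 2, 151716062 to 151744199, so another start may be in use in these cells.

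In the core particle, 17 of 19 genes were tested and none was called. The alpha ring (Psma1 to Psma7), which gates the barrel, had a median log2 fold change of -0.06 in RNA and -0.08 in footprints, with single genes between -0.14 (Psma5, RNA) and 0.10 (Psma4, footprints), and the interval of all 7 genes lay inside 1.25-fold in both assays. The beta ring (Psmb1 to Psmb7) had medians of -0.03 and -0.06. Psmb4, a structural beta subunit and the core gene with the most footprints, stood at 674, 603 and 596 CPM of footprints in siKrr1 A, C and D, against 704, 667 and 685 CPM in siGFP, siNC and Lipo. The groups overlapped through siKrr1 A. Its RNA stood at 854, 723 and 714 CPM in siKrr1, against 754, 812 and 795 CPM in controls, with siKrr1 A the highest of the 6 libraries.

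None of the catalytic subunits was called in either assay. Psmb6, the caspase-like subunit, stood at 535, 521 and 493 CPM of RNA in siKrr1, against 525, 532 and 520 CPM in controls. Psmb7, the trypsin-like subunit, stood at 421, 407 and 358 CPM in siKrr1, against 386, 404 and 418 CPM in controls. Psmb5, the chymotrypsin-like subunit, stood at 51.7, 51.3 and 38.8 CPM in siKrr1, against 58.4, 50.1 and 49.1 CPM in controls. For all 3 the groups overlapped, and siKrr1 D was the lowest library. In footprints Psmb5 stood at 32.8, 28.6 and 27.7 CPM in siKrr1, against 28.7, 31.3 and 29.8 CPM in controls, so the low RNA value of siKrr1 D was not matched by one of like size in its footprints. RefSeq lists named pseudogenes of Psma5, Psmb5, Psmb6 and Psmb7 among the members, and reads shared with such copies are lost from uniquely aligned counts, so the levels of these 4 genes are uncertain. Only pseudogenes that carry the name of a member were looked for, so levels of further genes may be uncertain too.

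The immunoproteasome subunits, which replace the catalytic subunits after interferon, were either nearly silent or not called. Psmb8, the counterpart of Psmb5, had 0, 2 and 3 RNA reads in siKrr1, against 1, 5 and 8 in controls, and was not tested. Psmb9, the counterpart of Psmb6, stood at 4.24, 2.49 and 3.11 CPM of RNA in siKrr1, against 3.70, 3.13 and 2.85 CPM in controls. Psmb10, the counterpart of Psmb7, stood at 164, 176 and 131 CPM in siKrr1, against 167, 167 and 156 CPM in controls. The groups of both tested genes overlapped. Of the 12 antigen processing genes examined beside them (edgeR, adjusted p under 0.05), 0 were called in either assay. Over all genes tested 4.8% were called in RNA and 6.07% in footprints. Tap1, a peptide transporter gene on chromosome 17 (34187556 to 34197225) between Psmb9 (34182030 to 34187330) and Psmb8 (34198195 to 34201454), had the largest fold change of the list. Its RNA stood at 14.3, 4.18 and 6.49 CPM in siKrr1, against 3.38, 3.28 and 2.85 CPM in controls, a log2 fold change of 1.38 ± 0.36 (SE) with an edgeR adjusted p of 0.0516. In RNA every siKrr1 library was above every control, siKrr1 A furthest. Tap1 footprints stood at 13.2, 2.60 and 6.47 CPM in siKrr1, against 3.95, 3.03 and 2.53 CPM in controls, with an edgeR adjusted p of 0.128, and siKrr1 C lay within the controls. In RNA the edgeR adjusted p of Tap1 was 0.00498 with no filter on low counts and 0.0519 with RLE factors, while DESeq2 gave 0.0794. Without siKrr1 A the RNA log2 fold change was 0.75 and the edgeR adjusted p 0.1002, and without siKrr1 C they were 1.71 and 0.00462. Without siKrr1 D, siGFP, siNC or Lipo the edgeR adjusted p in RNA was 0.0816, 0.165, 0.131 and 0.163. In footprints it was 0.0053 with no filter and 0.00786 without siKrr1 C. The other edgeR alternatives gave 0.129 (RLE factors) to 0.377 (without siKrr1 A) in footprints, and DESeq2 gave 0.273. Over the 12 genes the median log2 fold change was -0.07 in RNA, from -0.28 (B2m) to 1.38 (Tap1). In footprints it was -0.02, from -0.36 (Tapbp) to 1.22 (Tap1). Psmb9 beside Tap1 was also highest in siKrr1 A. That library was the highest for 40.4% of the 47 tested proteasome genes in RNA and for 23.4% in footprints, against 21% and 22.6% of all genes. The footprints of Psmb9 stood at 4.71, 2.81 and 2.64 CPM in siKrr1, against 3.04, 2.81 and 2.04 CPM in controls.

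The tissue-restricted core genes were 1 tested gene and 1 nearly silent gene. Psma8, the alpha subunit of the testis proteasome, stood at 26.7, 33.2 and 32.5 CPM of RNA in siKrr1, against 18.97, 25.1 and 26.0 CPM in controls. Its footprints stood at 20.7, 23.5 and 22.9 CPM in siKrr1, against 18.2, 19.3 and 18.9 CPM in controls. The groups did not overlap in either assay, a separation towards higher siKrr1 values that 13.6% of all genes tested showed in RNA and 14.3% in footprints. In RNA the log2 fold change of Psma8 was 0.40 ± 0.13 (SE), with an edgeR adjusted p of 0.111, and 0.25 ± 0.09 in footprints, with an adjusted p of 0.125. DESeq2 gave an adjusted p of 0.0456 in RNA, while the edgeR alternatives gave 0.0619 (no filter on low counts) to 0.302 (without siGFP). Psmb11, the thymus subunit, had 0, 0 and 1 RNA reads in siKrr1, against 1, 4 and 0 in controls, and was not tested.

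In the regulatory particle, 1 of 21 genes was called, Psmd5 in footprints. The base ATPases (Psmc1 to Psmc6) had a median log2 fold change of 0.01 in RNA and -0.04 in footprints, with single genes between -0.11 (Psmc6, footprints) and 0.07 (Psmc3, RNA), and all 6 intervals lay inside 1.25-fold in both assays. The non-ATPase base subunits (Psmd1, Psmd2 and the ubiquitin receptor Psmd4) had medians of 0.02 and -0.05, and the lid of 8 genes -0.02 and -0.00. Psmd14, the lid enzyme that cuts ubiquitin chains off the substrate, had the highest footprint fold change of the lid, 0.12 ± 0.05 (SE, log2), with an edgeR adjusted p of 0.198. Psmd1, the base scaffold and the regulatory gene with the most footprints, stood at 550, 602 and 584 CPM of footprints in siKrr1, against 585, 592 and 600 CPM in controls, with siKrr1 C the highest library. The gene matched by name alone, Psmc3ip, stood at 43.3, 42.9 and 34.0 CPM of RNA in siKrr1, against 42.0, 43.7 and 41.9 CPM in controls.

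Psmd3, a lid subunit, had the largest RNA fold change of the regulatory particle. Its RNA stood at 286, 294 and 233 CPM in siKrr1, against 318, 316 and 298 CPM in controls. Its footprints stood at 398, 411 and 370 CPM in siKrr1, against 438, 437 and 437 CPM in controls. The groups did not overlap in either assay, with siKrr1 D the lowest in both. In RNA the log2 fold change of Psmd3 was -0.20 ± 0.09 (SE), with an edgeR adjusted p of 0.24, and -0.15 ± 0.05 in footprints, with an adjusted p of 0.119. Across all 47 genes the groups were apart in RNA for 5 (10.6%), 2 higher and 3 lower, against 27% of all genes tested, 13.6% higher and 13.4% lower. In footprints they were apart for 11 (23.4%), against 27.9% of all genes tested, 14.3% higher and 13.6% lower. Of these 11, Psma8, Psmf1 and the lid deubiquitinase Psmd14 were higher in siKrr1, and 8 were lower: Psma1, Psma2, Psmc1, Psmc6, Psmd3, Psmd5, Psmd13 and Psmg3.

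The 3 chaperones that place the ATPases of the base, Psmd5, Psmd9 and Psmd10, had a median log2 fold change of -0.02 in RNA and -0.11 in footprints. Psmd5, on chromosome 2 (34852087 to 34870965), stood at 168, 158 and 158 CPM of footprints in siKrr1, against 183, 184 and 190 CPM in controls. Its RNA stood at 227, 246 and 248 CPM in siKrr1, against 236, 245 and 251 CPM in controls. The footprint groups did not overlap and the RNA groups did. Footprints of Psmd5 averaged 161 ± 5.61 CPM in siKrr1 and 186 ± 3.67 CPM in controls (SD, n = 3 each), and fell by 0.21 ± 0.05 (SE) on the log2 scale, with an edgeR adjusted p of 0.0464. The RNA log2 fold change was -0.02 ± 0.07, with an edgeR adjusted p of 0.894. The log2 change of translational efficiency was -0.19 ± 0.08, with a 95% interval of -0.37 to -0.01 and an edgeR adjusted p of 0.9999. With the lysate as a block the edgeR adjusted p was 0.637. The footprint call of Psmd5 was lost without siKrr1 C (edgeR adjusted p 0.0705), siKrr1 D (0.0973), siGFP (0.12), siNC (0.156) or Lipo (0.211), while the log2 fold change stayed between -0.24 and -0.19.

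Among the activators, which open the core barrel in place of the regulatory particle, 4 of 4 were tested and 0 called. The median log2 fold change was 0.00 in RNA and 0.02 in footprints. Psme2, a subunit of the interferon-induced ring-shaped activator, stood at 14.7, 10.1 and 10.5 CPM of RNA in siKrr1, against 13.0, 12.2 and 12.2 CPM in controls. Psme4, the activator known for acting in chromatin and in the testis, stood at 326, 259 and 275 CPM of footprints in siKrr1, against 272, 266 and 269 CPM in controls. In both cases siKrr1 A was the highest library and siKrr1 C the lowest.

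Psmf1, named as an inhibitor of the core particle from its action in vitro, was the 1 proteasome gene called as higher. Its RNA stood at 45.6, 43.2 and 50.0 CPM in siKrr1, against 38.3, 38.3 and 35.1 CPM in controls. Its footprints stood at 89.2, 83.3 and 88.4 CPM in siKrr1, against 74.0, 71.5 and 66.3 CPM in controls. Every siKrr1 library was above every control in both assays. Footprints averaged 87.0 ± 3.22 CPM in siKrr1 and 70.6 ± 3.97 CPM in controls (SD, n = 3 each), and rose by 0.30 ± 0.07 (SE) on the log2 scale, with an edgeR adjusted p of 0.026. The RNA log2 fold change was 0.31 ± 0.09, with an edgeR adjusted p of 0.065, and the log2 change of translational efficiency was -0.02 ± 0.10. In RNA the adjusted p was 0.0273 with DESeq2 and 0.0343 with edgeR without siKrr1 C. The other alternatives made no RNA call. The edgeR adjusted p was 0.0546 with no filter on low counts and 0.0644 with RLE factors. Without siKrr1 A, siKrr1 D, siGFP, siNC or Lipo it was 0.106, 0.118, 0.149, 0.1675 and 0.267. The footprint call of Psmf1 was lost without siKrr1 D (edgeR adjusted p 0.0606), siGFP (0.0629), siNC (0.099) or Lipo (0.151, edgeR), while the log2 fold change stayed between 0.26 and 0.34.

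The core assembly factors, the chaperones that build the alpha ring, had a median log2 fold change of -0.09 in RNA and -0.08 in footprints, and 0 of 4 were called. Psmg1 stood at 241, 241 and 166 CPM of RNA in siKrr1, against 225, 250 and 235 CPM in controls, and at 182, 181 and 146 CPM of footprints in siKrr1, against 178, 192 and 191 CPM in controls. Its siKrr1 D value was the lowest in both assays, and siKrr1 A and C lay within the control range. Psmg3 stood at 30.4, 26.9 and 26.7 CPM of RNA in siKrr1, against 34.8, 28.7 and 31.1 CPM in controls. Those groups overlapped through siKrr1 A.

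**Figure D2:**
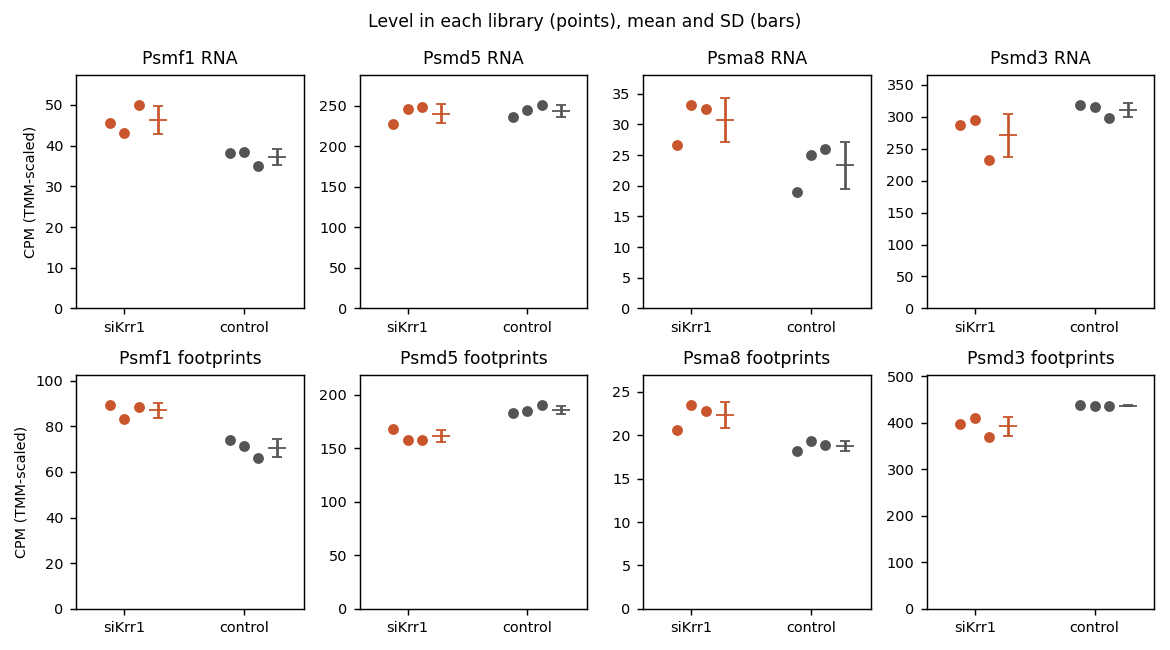
TMM-scaled CPM of Psmf1, Psmd5, Psma8 and Psmd3 in RNA-seq and ribosome footprints, with siKrr1 A, C and D left of siGFP, siNC and Lipo; points are libraries, and the bars beside them are the mean and SD of 3 libraries. Psmf1 lies above the controls in all 3 siKrr1 libraries in RNA and footprints, and Psmd5 lies below them in footprints but not in RNA.

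Single libraries differed for these genes. Each siKrr1 lysate had its own siRNA and each control its own treatment, so effects of reagent and of lysate cannot be told apart. In RNA, siKrr1 D was the lowest of the 6 libraries for 22 of 47 genes (46.8%), against 24.3% of all genes tested, and siKrr1 A the highest for 19 (40.4%), against 21%. In footprints siKrr1 D was the lowest for 17 of 47 (36.2%), against 19.1% of all genes tested. Among the controls siGFP stood apart in part: it was the lowest library in RNA for 15 of 47 (31.9%), against 16% of all genes tested, and the highest in footprints for 15 of 47 (31.9%), against 18%. The median deviation of the 47 genes from the control mean in RNA was 0.06, 0.01 and -0.09 (log2) in siKrr1 A, C and D, and -0.05, 0.03 and 0.03 in siGFP, siNC and Lipo. In footprints it was -0.02, -0.03 and -0.07 in siKrr1 A, C and D, and within 0.01 of 0 in each control. The summed level of the 9 stem cell markers was also lowest in siKrr1 D, at 6549 CPM in RNA and 4902 CPM in footprints, and its part in these values was not tested.

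**Figure D3:**
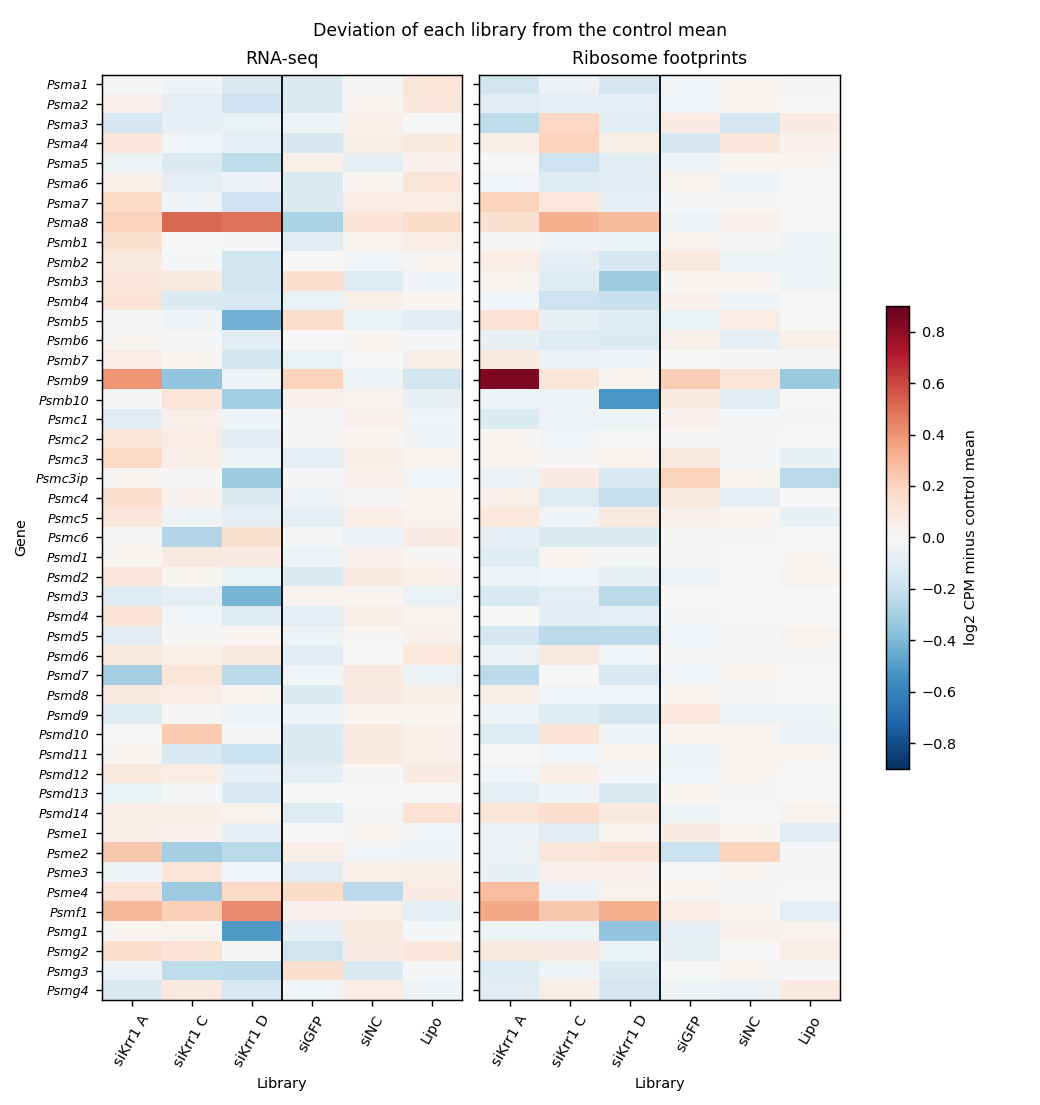
Deviation of each library from the control mean (log2 CPM) for the 47 tested proteasome genes in RNA-seq and ribosome footprints, siKrr1 libraries left of the controls. Blue cells cluster in the siKrr1 D column, while the red rows of Psmf1 and Psma8 run through all 3 siKrr1 libraries.

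How many footprints a gene carried per RNA read differed between subunits in control cells. The log2 ratio of footprint CPM to RNA CPM had a median of -0.17 over the 47 genes, beside -0.20 over 13108 genes tested in both assays. The quartiles were -0.37 and 0.37 over the 47 genes and -0.81 and 0.38 over all genes. These spreads were not compared at equal read depth. The largest SD of a gene over the control lysates was 0.25 among the 47 and 2.52 among all genes. Among the 47 the ratio ran from -1.97 ± 0.09 for the alpha subunit Psma5 to 1.23 ± 0.07 for the beta subunit Psmb2 (SD over 3 control lysates). The next highest were the ATPase Psmc6 at 1.09, Psmf1 at 0.92 and the lid subunit Psmd11 at 0.73. The lowest after Psma5 were Psme2 at -1.36 and Psmd2 at -0.91. By class, the lid had a median of 0.44, the base ATPases 0.13, the base chaperones 0.01, the non-ATPase base subunits -0.35, the alpha ring -0.29 and the beta ring -0.57. Subunits of the same complex thus differed in this ratio, whose values rest on reads over whole RNAs, untranslated parts included, as well as on uniquely aligned reads, which named pseudogenes can remove. The genes with named pseudogenes include Psma5, the lowest here, and Psmb5, Psmb6 and Psmb7 of the beta ring, the lowest of these classes. The part of lost reads in their ratios was not tested.

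After knockdown Psmb2 still had the highest mean ratio, 1.21, and Psma5 the lowest, -1.93. The ranges of the 3 siKrr1 and 3 control lysates were apart for 2 of the 47 genes, both lower in siKrr1, against 5.48% of all genes lower and 6.81% higher. For Psmd5 it was -0.44, -0.64 and -0.65 in siKrr1 A, C and D, against -0.37, -0.41 and -0.40 in siGFP, siNC and Lipo. For Psmd1 it was 0.51, 0.58 and 0.54 in siKrr1, against 0.66, 0.60 and 0.64 in controls. Both differences are small, siKrr1 A of Psmd5 and siKrr1 C of Psmd1 lying next to the controls, and neither gene was called in the test of translational efficiency.

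**Figure D4:**
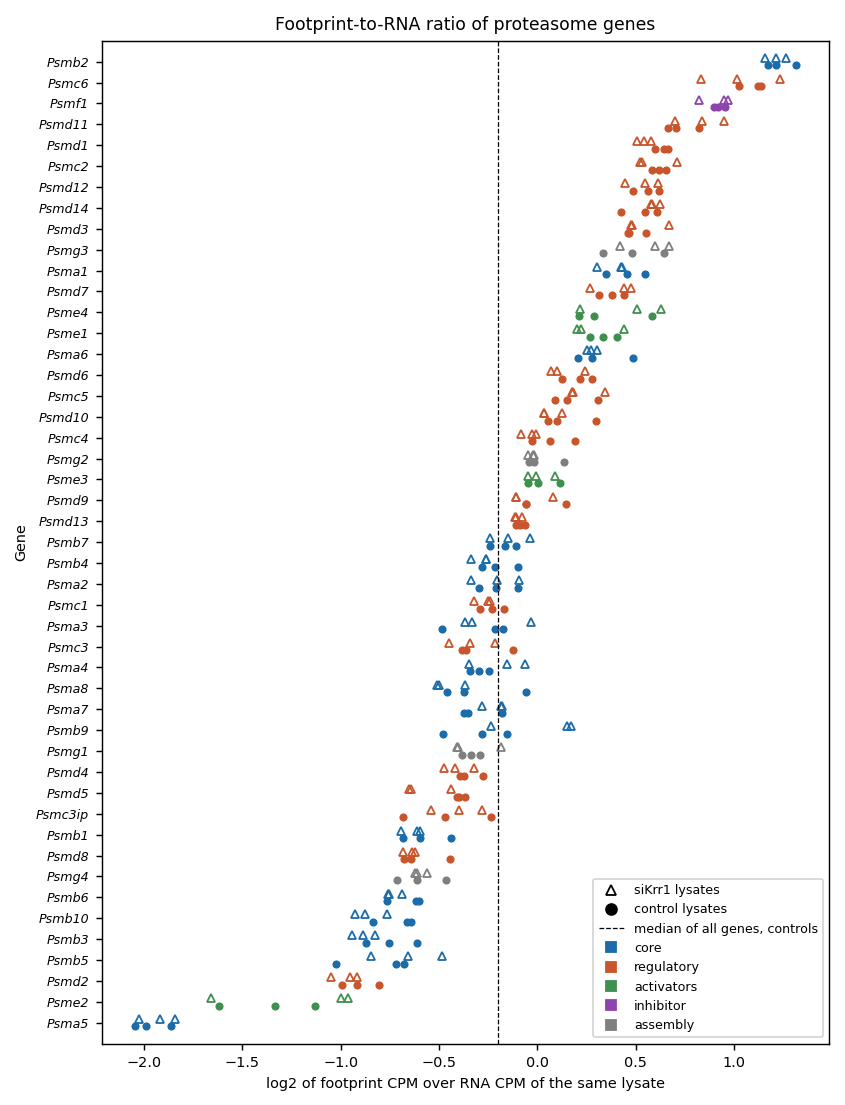
Log2 ratio of footprint CPM to RNA CPM for the 47 tested proteasome genes in siKrr1 and control lysates, ordered by the control mean; triangles are siKrr1 lysates, filled points are control lysates, and the dashed line is the median of all genes in controls. The order runs from Psmb2 at 1.23 to Psma5 at -1.97 in controls, and siKrr1 points overlap the controls for nearly all genes.

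Partners of the proteasome outside the naming rule were examined as a list of 29 genes, 28 of them tested. None was called in RNA or translational efficiency, and in footprints 0 were higher and 2 lower (edgeR, adjusted p under 0.05). Over all genes tested 4.8% were called in RNA, 0% in translational efficiency and 6.07% in footprints (3.39% higher and 2.68% lower). Footprints of Nfe2l2, the stress transcription factor NRF2, stood at 99.7, 109 and 102 CPM in siKrr1, against 119, 121 and 126 CPM in controls. They fell by 0.24 ± 0.06 (SE) on the log2 scale, with an edgeR adjusted p of 0.0423. The RNA log2 fold change of Nfe2l2 was of like size, -0.21 ± 0.11, with an edgeR adjusted p of 0.323. Footprints of Ubb, a polyubiquitin gene, stood at 158, 158 and 160 CPM in siKrr1, against 198, 177 and 186 CPM in controls, and fell by 0.24 ± 0.06, with an edgeR adjusted p of 0.0376. The RNA log2 fold change of Ubb was 0.02 ± 0.09, with an edgeR adjusted p of 0.914. Footprint groups were apart for both genes, a separation towards lower siKrr1 values that 13.6% of all genes tested showed. Ubb shares near-identical repeats with other ubiquitin genes, so its unique counts are uncertain. Both calls held without siKrr1 C (edgeR adjusted p 0.0209 for Nfe2l2 and 0.0497 for Ubb) and were lost without any other single library (up to 0.199 and 0.154). The footprint log2 fold changes stayed between -0.28 and -0.21 for Nfe2l2 and between -0.27 and -0.19 for Ubb.

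The factor that raises subunit genes after proteasome inhibition, Nfe2l1 (NRF1), had a log2 fold change of -0.19 in RNA and -0.13 in footprints, with edgeR adjusted p of 0.173 and 0.228. Pomp, the chaperone of beta ring maturation, had 0.02 in RNA and -0.09 in footprints. The ubiquitin receptor Adrm1 had -0.12 and -0.16, and Shfm1, the small lid subunit, 0.06 and -0.01. Usp14, a deubiquitinase that sits on the proteasome, had 0.05 and 0.06. None of these 5 passed the test.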

How the data were processed

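The authors deposited raw read counts per gene symbol, for which the submitters' processing notes name STAR, HTSeq and mm10. Their versions, the annotation and the strand setting were not given in the sources used here. Without a stated strand setting, reads of overlapping or antisense genes cannot be told apart. Reads on no feature (31.2% to 33.4% of unique alignments in RNA, 57.5% to 63.3% in footprints) and ambiguous reads were kept out of library sizes. Columns A, C and D could be tied to the siKrr1 group but not to single titles. The proteasome genes and gene lists were chosen with earlier results of these data known.

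Counts were tested per assay in R 4.3.3 by quasi-likelihood (limma 3.58.1, edgeR 4.0.16) with TMM factors, filterByExpr and Benjamini-Hochberg adjustment over all genes tested, after a check on simulated data. For translational efficiency the assay-by-condition term was tested over 12 libraries. DESeq2 1.42.0, RLE factors, no filter and single libraries left out were alternatives. CPM are TMM-scaled, and log2 ratios were taken from them without a prior count. Log2 deviations carry a prior count of 2. The labels state that lysates were divided between the assays, so a replicate block was also fitted. Deviations from the group mean correlated between both libraries of a lysate with an r of 0.613 to 0.713 in siKrr1 and 0.265 to 0.359 in controls, over 6117 genes. No libraries of a group were duplicates (chi-square per degree of freedom 4.03 to 28.7). Values in every library are given for genes called in at least 1 comparison, the gene of each class with the largest RNA change and the most footprints, catalytic, immunoproteasome and tissue-restricted subunits, and Psmc3ip. All 49 symbols were in the RefSeq gene table, and 41 in the separate RefSeq promoter table (both GRCm38.p6).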

Additional observations from a re-analysis of the deposited data

How the results depend on the processing

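Of 1595 values of single genes under the alternatives, 1567 kept their side of the threshold, 19 lost a call and 9 gained one. Most of these values were not called in the main fit and had no call to lose, so the 1567 do not measure how stable calls were. All lost calls were footprint calls. Of 9 alternatives, the call was kept in 5 for Psmf1 and in 4 each for Psmd5, Nfe2l2 and Ubb. The sign changed in 108, none of them called in either fit. Proteasome genes called as higher in RNA numbered 2 with DESeq2 and 0 to 1 with single libraries left out. In footprints, leaving out single libraries gave 0 to 1 higher and 0 to 1 lower. Over the same fits the median log2 fold change ran from -0.132 to 0.011 for the assembly factors in RNA, from -0.0944 to -0.0123 for the core in footprints and from -0.0606 to -0.0336 for the regulatory particle in footprints. With the replicate block for paired libraries of a lysate, translational efficiency gave 0 higher and 0 lower proteasome genes, as did every other alternative, and 5 higher and 1 lower over all genes; DESeq2 gave 2 higher. Over all genes, RNA calls numbered 666 higher and 536 lower with DESeq2, and 582 and 477 with no filter; single libraries left out gave 63 to 759 higher and 51 to 539 lower. Footprint calls numbered 784 and 616 with no filter, and 67 to 791 and 64 to 546 with single libraries left out. The cause was not tested. Footprint density per codon was not run, since coding lengths were not used here. With 3 libraries a group, an exact permutation test of a single gene cannot go below p = 0.1, and Psmb8 and Psmb11 had too few reads to test.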
